A study of Homo sapiens with 12 samples.

Results

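Internal open reading frames (ORFs) that start at ATG were the 5566 rows of the deposited ORF table that its type column calls internal, whose start codon is ATG and that do not lie on chromosome MT. They were chosen from the type, codon and position columns alone, out of 149028 ORFs in the table. The table holds 47500 internal ORFs in all, and 41893 of those outside chromosome MT start at another codon, so that ATG accounts for 11.7%. Another 4 internal ORFs at ATG lie on chromosome MT and were left out.

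A ribosome normally scans from the cap of an mRNA to the first ATG in a favourable context and translates the main coding sequence from there. Some scanning ribosomes pass that ATG and start at a later one, which is called leaky scanning, and when the later ATG lies in another frame an unrelated peptide is made from within the coding sequence. An internal ORF of this kind shares every base with its host, so footprints can be given to it only through their position relative to the codon. The caller used here, PRICE, weighs footprints by their length and offset to divide them among overlapping frames.

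The cells were HEK293, a human embryonic kidney line with no transgene or knockdown named in the labels, in 3 conditions. Log-phase cells grew in DMEM with 10% fetal bovine serum, serum-starved cells spent 2 h without serum, and amino-acid-starved cells spent 1 h in Earle's balanced salt solution with vitamins and 10% serum. From each condition ribosome footprints of 17 to 34 nt were taken from the pooled monosome fractions of a gradient, where an mRNA carries 1 ribosome, and from the pooled polysome fractions, where it carries several. Lysates of all groups held cycloheximide at 100 µg/ml, an elongation inhibitor that holds ribosomes in place. Each of the 6 groups has 2 libraries, named A and B by the table's columns. No label says whether A and B are separate cultures, so each p-value measures only the spread between these libraries, which may be technical. The identity of the cells was not checked against markers here.

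Overlapping rows were reduced so that each codon counted once, which kept 124829 ORFs and 5205 of the members. The kept ORFs held 354506 to 1204002 footprints in the monosome libraries and 2477823 to 7683728 in the polysome libraries. An ACG-initiated internal ORF of 9 nt on chromosome 12, which is no member, held 47.9% and 47.5% of the A monosome libraries of log phase and amino acid starvation and at most 0.935% of any other library. A non-coding-RNA ORF at ATG on the same chromosome held 8.72% of polysome library A of amino acid starvation. Levels below are per-million footprint values (fpm) on library sizes scaled by TMM, which gives such ORFs little weight. In such bulk libraries fewer cells with an mRNA, less mRNA per cell and less translation of it cannot be told apart.

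The sequences of a few members whose ATG follows closely on that of the coding sequence show how such a start lies in its host. Most members start farther in, as given below. Only promoter windows of RefSeq (GRCh38.p14) were at hand, which reach 50 bases into a gene, and 16 members have their start in one. All 16 have an ATG at the listed position, the 6 single-block members that lie wholly in a window all end in a stop codon, and all 1053 coding ORFs with a start in a window have the start codon that the table names. In each line the capitals mark the host start codon and then the member's ATG.
MAX: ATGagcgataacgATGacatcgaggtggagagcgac
RNF181: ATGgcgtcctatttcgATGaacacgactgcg
TRIAP1: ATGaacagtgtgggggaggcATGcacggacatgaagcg
HACD3: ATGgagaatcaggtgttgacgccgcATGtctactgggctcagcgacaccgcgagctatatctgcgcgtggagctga
ENSG00000161956_ENSG00000129226: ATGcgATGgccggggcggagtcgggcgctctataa
POLD2: TTGgcgggATGcggcgcgccgcgcg

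MAX encodes the dimerization partner of MYC. Its sequence (chr14:65102304-65102339, minus strand) puts the member's ATG 13 bases into the coding sequence, in frame +1, and 2 members of 171 and 153 nt share this start and differ in their later exons. RNF181 (chr2:85595764-85595794, plus strand, a ubiquitin ligase) has it 16 bases in and TRIAP1 (chr12:120446335-120446372, minus strand, a p53-regulated survival factor) 20 bases in. HACD3 (chr15:65530632-65530707, plus strand, a fatty acid elongation enzyme) has it 25 bases in, and its line runs to the member's stop codon. The member under the joined identifiers ENSG00000161956_ENSG00000129226 (chr17:7572766-7572800, plus strand) starts 5 bases in and is also shown to its stop codon. In POLD2 (chr7:44123511-44123535, minus strand, a subunit of DNA polymerase delta) the called host starts at TTG, as a truncated coding ORF, and the member's ATG lies 8 bases into it. The caller's p-value, described below, was 0.885 and 0.978 for the 171-nt and 153-nt MAX members. It was 0.911 for RNF181, 0.9998 for TRIAP1, 0.871 for HACD3, 0.0056 for the joined identifiers and 0.011 for POLD2. The RNF181 member and the 153-nt MAX member were not among those kept.

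A start codon is read most efficiently with a purine 3 bases before the A and a G just after the ATG. Of the 16 members in windows, 10 had the purine, 2 had the G and 1, the member of ENSG00000161956_ENSG00000129226, had both. Of 317 complete coding sequences at ATG in such windows, 90.2% had the purine, 76.7% the G and 71.6% both. The 16 members were chosen by the windows and do not stand for the rest.

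Most members were short. Their lengths ran from 6 to 609 nt with quartiles of 15, 33 and 60 nt, close to the 18, 36 and 63 nt of internal ORFs at other codons and far under the median of 510 nt of complete coding sequences (type CDS). There were 2337 members under 30 nt, 507 of 100 nt or more and 8 of 300 nt or more. The members lay in 3565 gene identifiers, of which 2274 held 1 member and 61 held 5 or more, with at most 11. A single RefSeq gene covered 5451 members by position and gave them its symbol. Another 106 lay inside several genes and 9 in none. Members of 1 gene share their host's reads, and 238 members with a total of at least 10 footprints had the same 12 values as another row.

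The label of an internal out-of-frame ORF could be checked where a coding ORF of the same gene was called. Such a host was called for 3440 members, and 2469 members overlapped one. An out-of-frame overlap was found for 2450 of these, and 19 overlapped only in frame, against the label. The other 3097 members overlapped no called coding ORF of their gene, so their frame was not checked. They include 2126 members whose gene had no called coding ORF. The rest lay outside the coding ORF called in their gene, so their place inside a host was not borne out here. The hosts were mostly fragments by the table's own types, with 1493 truncated, 520 variant and 437 complete coding ORFs.

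The out-of-frame members lay unequally in the 2 possible frames. Frame +1, shifted by 1 base from the host codons, held 1991 members and frame +2 held 459, so that 81.3% were in frame +1. Judged by the start position alone, 81.3% of the 2339 out-of-frame members were in frame +1, and the same was true of 62.2% of the out-of-frame internal ORFs at other codons. The 2364 starts that lay inside a host were spread along it, with quartiles at 21.5, 43.0 and 67.4% of the host's length and a median of 334 nt from its start. Only 430 lay within 100 nt of that start. Footprints per nt were lower in the member than in its host for most, with quartiles of 22.5, 45.0 and 85.8% of the host's density, and 509 of 2450 members were denser than their host.

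**Figure D1:**
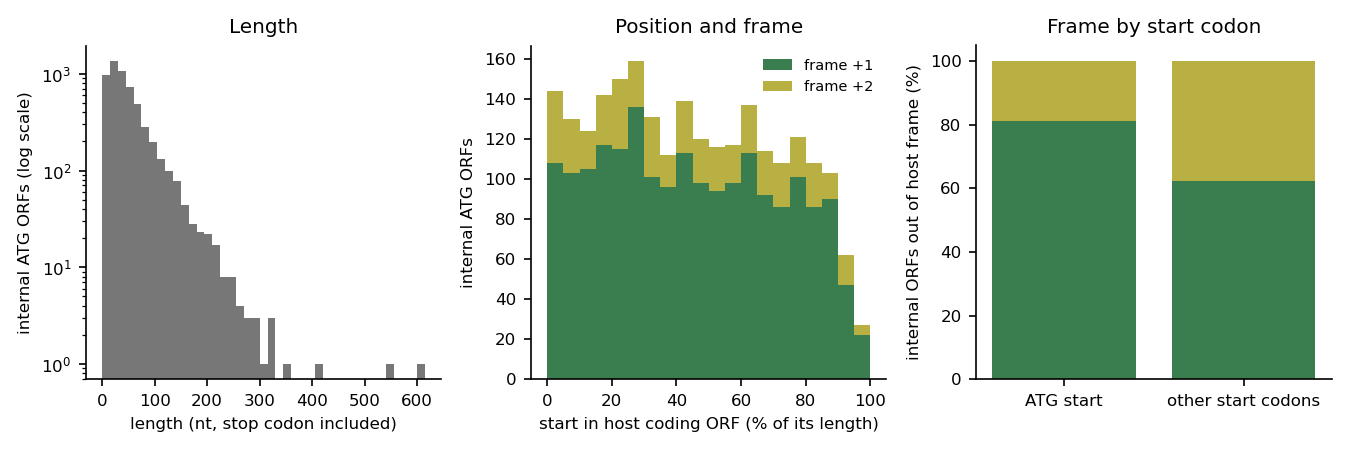
Shape of the members, with counts of ORFs by length in nt on a log axis at left, counts by start position as a percent of the host's length at centre, stacked by frame, and the percent of out-of-frame internal ORFs in each frame at right for ATG and for other start codons. The median length is 33 nt, starts are spread along the host with a median at 43.0% of its length, and frame +1 holds 81.3% at ATG and 62.2% at other codons.

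Few members had a low p-value in the caller's own test of translation. The caller's p-value, which is deposited with each ORF, had a median of 0.652 over the members and was under 0.05 for 214. It was under 0.01 for 41 members, which is 0.737%, against 0.931% of internal ORFs at other codons and 40.0% of 11336 coding ORFs. Evenly spread p-values would put more than 0.737% under 0.01. Among other classes at ATG, p under 0.01 was reached by 7.92% of 1655 upstream ORFs, 8.56% of 292 upstream ORFs overlapping the coding start, 2.49% of 2211 downstream ORFs and 4.54% of 5682 non-coding-RNA ORFs. The table gives 1 such p-value per ORF and none per library.

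A single member had a caller p under 1e-04. It was a 27-nt ORF in KMT5B, a histone H4 lysine methyltransferase, at chr11:68158068-68158094, with a caller p of 2.6e-05 from a total of 20.7 footprints, of which 1.0 came from monosomes. Its depth was too low for any comparison of groups. The 41 members with p under 0.01 had totals of 6.3 to 1709 and a median length of 45 nt. Of the 430 members that start within 100 nt of the host start, 10 had p under 0.01 (2.33%), against 8 of the 1934 that start farther in (0.414%).

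A few of the members near the host start with a caller p under 0.01 are described here, picked after their values were seen. Their caller p-values were not adjusted here for the number of ORFs, so translation of each is not established. The GADD45GIP1 member (222 nt, a component of the mitochondrial ribosome) starts 17 nt into its host with a caller p of 0.0056, and had 24.5 and 28.5 fpm in log-phase monosome libraries A and B and 82.6 and 41.7 fpm in polysomes. Each polysome library of log phase was above each monosome library. Others were in SCOC (105 nt, 43 nt in), ATP6V0C (51 nt, 34 nt in, a proton channel subunit of the vacuolar ATPase), HOMER2 (51 nt, 55 nt in, a scaffold protein) and RPL12 (39 nt, 22 nt in, a ribosomal protein).

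The members' total over the 12 libraries had a median of 19.75 footprints. A total of at least 10 was reached by 3990 members, of at least 100 by 770 and of at least 1000 by 66, while 105 had none. Among the 5205 kept members, the 12 with the highest totals held 18.3% of the footprints and the highest 100 held 44.0%.

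Members held about 1% of each library. In log phase their share was 0.546 and 0.852% of the footprints of monosome libraries A and B and 0.947 and 1.22% of the polysome libraries. In serum starvation it was 1.61 and 1.15% in monosomes and 1.23 and 1.18% in polysomes. In amino acid starvation it was 0.603 and 0.850% in monosomes and 0.927 and 1.54% in polysomes. Both serum-starved monosome libraries were above both log-phase monosome libraries, while the amino-acid-starved ones overlapped them. The polysome groups overlapped one another.

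The 2 low monosome shares of library A are those in which the chromosome 12 ORF took 47.9 and 47.5% of the footprints. Without ORFs over 5% of a library they were 1.08 and 1.23%. Set against the coding footprints of the same library, members came to 2.48 and 2.02% in log-phase monosomes, 5.46 and 3.35% in serum-starved monosomes and 2.98 and 1.84% in amino-acid-starved monosomes. In polysomes the same figure was 1.37 and 2.15% for log-phase cells, 1.93 and 1.95% for serum-starved and 1.54 and 2.64% for amino-acid-starved cells. The monosome mean was 3.02% ± 1.32 (SD, n = 6) and the polysome mean 1.93% ± 0.451 (SD, n = 6), and their ranges overlap. Shares of a chosen class were given no test.

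**Figure D2:**
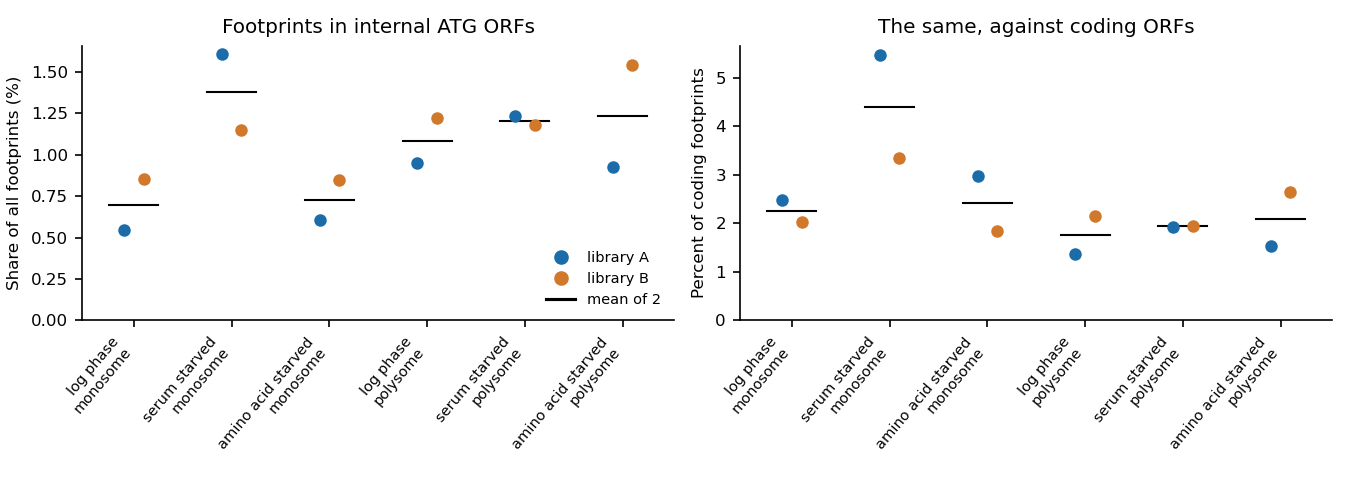
Percent of each library's footprints in the members at left, and member footprints as a percent of coding footprints at right, 1 point per library coloured by its letter, with a bar at the mean of the 2 libraries of a group. The serum-starved monosome libraries are highest of all at 5.46 and 3.35% of coding footprints at right.

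The member with the highest total was in EIF5A, the factor that helps ribosomes through proline-rich stretches and carries hypusine. The ORF of 267 nt (chr17:7309643-7311353) starts 115 nt into the coding sequence and had a total of 15075 footprints. It had 68.7 and 46.0 fpm in log-phase monosomes against 672 and 241 fpm in polysomes, 213 and 68.8 against 964 and 254 fpm in serum starvation, and 107 and 59.4 against 518 and 338 fpm in amino acid starvation. Every polysome library was above every monosome library. Its density was 34.1% of its host's and its caller p was 1.0.

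Next came members in histone and ribosomal protein genes. The H1-2 member (51 nt, in a linker histone gene) had a total of 10984, the H2BC11 member (18 nt, a core histone) 8744, the RPL32 member 7045, the RPL31 member 6618, the RPL27A member 5820, and the B2M member (the light chain of class I major histocompatibility molecules) 4205. The H2BC11 member had 724% of the density of its host, and replication-dependent histone genes exist in near-identical copies among which reads can be divided. The RPL31 and B2M members shared their codons with rows that were counted first and were not tested. The remaining ones of the top 12 were in H2BC4, the joined identifiers ENSG00000129473_ENSG00000100836, ZNF281, PRDX1 and RPS7.

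Monosomes and polysomes were compared for the 697 members with enough footprints, 13.4% of those kept, within an edgeR quasi-likelihood fit of 26467 ORFs. Over the 3 conditions, 89 members were higher in monosomes and 166 lower at an adjusted p under 0.05. These are 12.8 and 23.8% of the tested members, where 16.7 and 22.8% of all tested ORFs were called higher and lower. With the libraries paired by letter (a replicate term in the model), 120 members were higher and 244 lower, beside 22.5 and 32.1% of all ORFs. The share of members called lower is near that of all ORFs under both fits, and the share called higher is somewhat under it.

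The median member was lower in monosomes by a log2 change of -0.76, and the median over all tested ORFs was -0.48. Scaling by DESeq2's size factors put them at -0.56 and -0.33 and scaling by library size at -0.97 and -0.66, so a member's direction is best read against these medians. With 1 monosome library left out, where more low ORFs are tested, the medians were -1.55 to -1.16 over members and -1.25 to -0.80 over all, and with 1 polysome library left out -0.68 to -0.50 and -0.40 to -0.27. Complete coding ORFs had a median of -0.96 with 8.15% called higher and 43.6% called lower. Internal ORFs at other codons stood close to the members, with a median of -0.73 and 697 higher and 1201 lower of 5312 tested.

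The members lower in monosomes were led by a linker histone, redox and translation genes. The H1-2 member had 11.4 and 6.33 fpm in log-phase monosomes against 208 and 427 fpm in polysomes, 20.1 and 8.95 against 372 and 307 fpm in serum starvation, and 36.6 and 48.4 against 328 and 567 fpm in amino acid starvation. All polysome libraries were far above all monosome libraries, with a log2 change of -4.40 ± 0.46 (approximate SE, derived from the test) and an adjusted p of 1.1e-05. The member was called lower in each of the 3 conditions. It overlapped no called coding ORF.

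The PRDX1 member (33 nt, in the gene of a peroxide-reducing enzyme) had 4.72 to 22.8 fpm in the 6 monosome libraries and 42.1 to 186 fpm in the 6 polysome libraries. It was lower by a log2 change of -3.40 ± 0.46 (adjusted p = 9.8e-05), again in each condition. The METTL16 member (87 nt, an RNA methyltransferase) starts 4 nt into its host and had 1.40 to 5.54 fpm in monosomes and 14.4 to 143 fpm in polysomes. Its log2 change was -3.94 ± 0.57 (adjusted p = 0.00017), also called in each condition. These 3 members were the only ones called lower in each condition alone.

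Members in translation factor genes were also called lower. The 24-nt EIF4G2 member (an initiation factor related to EIF4G1 that acts in non-canonical initiation) had 6.10 to 18.6 fpm in monosomes and 68.1 to 128 fpm in polysomes, a log2 change of -3.01 ± 0.42 (adjusted p = 0.00012). The EIF5A member was lower by a log2 change of -2.49 ± 0.50 (adjusted p = 0.0019). The 120-nt EIF4H member (a helper of the helicase EIF4A) was lower by -2.66 ± 0.50 (adjusted p = 0.0011). Of 21 tested members in initiation and elongation factor genes, 2 were higher and 8 lower in monosomes, with a median log2 change of -2.31, where 16.7% of all tested ORFs were higher and 22.8% lower. These members are not independent, since several lie in EIF4H and those of EIF2S3 and EIF2S3B include a pair with nearly the same values.

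Ribosomal protein, histone and metabolic hosts held other members. The RPS7 member (96 nt) had 7.57 to 23.8 fpm in monosomes against 35.1 to 233 fpm in polysomes, with a log2 change of -3.04 ± 0.50 (adjusted p = 0.00044). Of 18 tested members in cytosolic ribosomal protein genes 1 was higher and 5 lower. Of 11 tested in histone genes none was higher and 2 were lower, H1-2 and H4C4 (-2.96 ± 0.66, adjusted p = 0.0035). These counts are near the 16.7% higher and 22.8% lower of all tested ORFs or rest on few members. The NDUFS5 member (66 nt, an accessory subunit of respiratory complex I) was lower by -2.60 ± 0.49 (adjusted p = 0.0013). Of 6 tested in glycolysis genes 4 were lower, among them the LDHA member (lactate dehydrogenase), with 3.28 to 15.9 fpm in monosomes and 11.9 to 50.4 fpm in polysomes.

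Several members called lower were almost without monosome footprints, and their size is then given as a ratio with its counting interval. Of the 166 members called lower, 27 had 3 or fewer footprints over the 6 monosome libraries. The ECHS1 member (21 nt, a mitochondrial enzyme of fatty acid oxidation) had 2.0 against 207 footprints in monosomes and polysomes, a polysome over monosome ratio of 13.0 after scaling (95% exact interval 3.56 to 108). The RALGPS2 member had 1.1 against 149.7 (ratio 18.9, 3.33 to 750, from footprints rounded to whole numbers as in all these ratios). The KCTD5 member had 0.5 against 169.7, and no ratio is given for it. The SPEN member had none against 163.4, which makes it at least 6.85-fold higher in polysomes by a floor of 3 counts over the fraction. All such intervals and floors cover counting error only.

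Near-identical gene copies affect some of these. The 24-nt members of PGAM1 and PGAM4, an enzyme of glycolysis and its retrocopy, had the same values within 0.1 in all 12 libraries, so their reads cannot be told apart. Each had 1.2 against 110.0 footprints (ratio 13.8, 2.43 to 551). The 99-nt members of TUBA1B and TUBA1C, alpha-tubulin genes, had nearly the same values, with 7.8 against 244 footprints, and were not called (adjusted p = 0.062 for both), while the fit with a replicate term called both lower (adjusted p = 0.0023 for both).

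The members higher in monosomes were led by 9 nt in ATP5F1E, the small epsilon subunit of ATP synthase. It had 30.4 and 26.5 fpm in log-phase monosomes against 2.43 and 0.414 fpm in polysomes, 36.8 and 12.0 against 0.321 and 0.237 fpm in serum starvation, and 21.9 and 9.26 against 0.577 and 0.258 fpm in amino acid starvation. All 6 monosome libraries were above all 6 polysome libraries. The log2 change was 5.25 ± 0.61 (adjusted p = 3e-05). The host gene as a whole moved likewise, by 4.81, and ATP5F1E is a very short coding sequence.

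Genes of transcription and RNA handling held other members called higher. The HEXIM1 member (90 nt, an inhibitor of the elongation factor P-TEFb) had 8.57 to 56.1 fpm in monosomes and 0.0345 to 1.81 fpm in polysomes, with a log2 change of 4.55 ± 0.71 (adjusted p = 0.00032). The PNN member (120 nt, a splicing-associated protein) had 23.6 to 76.2 fpm in monosomes and 1.17 to 10.0 fpm in polysomes (3.36 ± 0.48, adjusted p = 0.00016). The DDX5 member (195 nt, an RNA helicase) had 35.4 to 114 fpm in monosomes and 3.58 to 13.9 fpm in polysomes (3.01 ± 0.45, adjusted p = 0.00022). The groups of libraries did not overlap in any of the 3 genes.

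The PABPC1 member (72 nt, the cytoplasmic poly(A)-binding protein) had 9.27 to 68.1 fpm in monosomes and 0.444 to 3.65 fpm in polysomes, with a log2 change of 3.66 ± 0.64 (adjusted p = 0.00074). The ARL6IP4 member had 13.7 to 122 fpm in monosomes and 2.49 to 6.18 fpm in polysomes (3.18 ± 0.43, adjusted p = 0.00011). The HSPA8 member (84 nt, the constitutive HSP70 chaperone) had 39.0 and 80.1 fpm in log-phase monosomes against 2.89 and 9.17 fpm in polysomes, 65.6 and 140 against 6.63 and 9.09 fpm in serum starvation, and 35.7 and 62.9 against 9.50 and 11.1 fpm in amino acid starvation. It was higher in monosomes by 3.11 ± 0.45 (adjusted p = 0.00018). No polysome library reached any monosome library in these genes. TOB1 (4.82 ± 1.01, adjusted p = 0.0024), SH3BGRL3 (3.63 ± 0.84, adjusted p = 0.0043) and DPH3 (3.44 ± 0.71, adjusted p = 0.0022) completed those named over 3 conditions, apart from the ones described next.

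**Figure D3:**
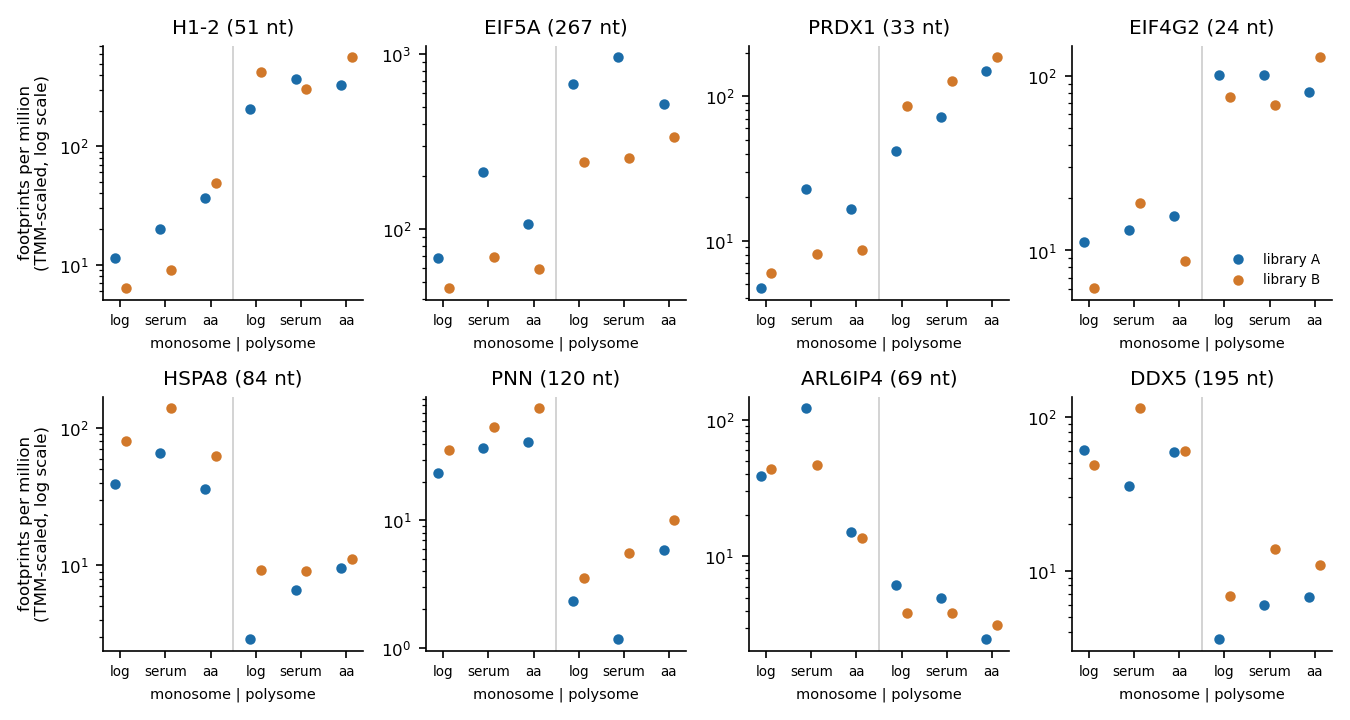
Levels of 8 members in the 12 libraries, in fpm on a log axis, 1 point per library coloured by its letter, with the monosome groups left and the polysome groups right of the line. The H1-2, EIF5A, PRDX1 and EIF4G2 members are lower in every monosome library than in any polysome library, and the HSPA8, PNN, ARL6IP4 and DDX5 members are higher in every one.

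The largest fitted changes came from 2 libraries. The 9-nt ZNF281 member (in a zinc finger gene) had 3235 fpm in log-phase monosome library A and 4411 fpm in that of amino acid starvation, against 36.3 and 31.6 fpm in the B libraries, 0 and 35.5 fpm in serum-starved monosomes and 1.0 footprint in all polysome libraries together. It was called higher over the 3 conditions (adjusted p = 0.00031). The 15-nt DDX53 member had 394 and 1448 fpm in the same A libraries and 13.0 and 11.0 fpm in the B libraries, and the 9-nt FAM200C member 190 and 309 fpm against 2.26 and 2.12 fpm. FAM200C had no polysome footprint and none in serum-starved monosome library A, so its level in monosomes rests on these 2 A libraries.

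In all, 7 tested members were over 10-fold higher in both of these A libraries than in their B partners, in ZNF281, AGAP1, FAM200C, PRKDC, MAP4K5, GLCE and DDX53, and 0 were in the reverse. These A libraries are those in which the chromosome 12 ORF took 47.9 and 47.5% of footprints, and its part in these values was not tested. The same count over all tested ORFs is not given here, so the pattern cannot be called particular to the members.

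Within single conditions fewer members were called. In log phase 15 were higher and 14 lower in monosomes, with 4.99 and 1.79% of all ORFs called; with the replicate term these were 66 and 90, with 14.9 and 11.9%. In serum starvation 17 were higher and 6 lower, with 4.59 and 2.13% of all ORFs, and 85 and 77 with the replicate term, with 15.6 and 14.0%. In amino acid starvation 5 were higher and 6 lower, with 3.01 and 0.34% of all ORFs, and 42 and 54 with the replicate term, with 11.1 and 7.29%. These counts without the replicate term rest on single libraries. In log phase the 29 calls became 2 without monosome library A. The 23 of serum-starved cells became 1 without polysome library A, and the 11 of amino-acid-starved cells became 0 without monosome library A or either polysome library. Members called higher in serum starvation included those of COMMD6, SERF2, SNX3 and RAB32. The difference of the monosome over polysome change from that in log phase was tested for both starvations, and 0 members passed. In edgeR 13 of 697 members in amino acid starvation and 11 in serum starvation had an unadjusted p under 0.05, beside 563 and 428 of 26467 ORFs.

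The number of calls over 3 conditions depended on single monosome libraries. Without monosome library B of serum starvation 49 members were higher in place of 89. Without that of amino acid starvation there were 52, without log-phase B 55, and without amino acid starvation A 58. The count of lower members rose from 166 to 271 without serum-starved monosome library A and to 255 without log-phase monosome library A. More ORFs pass the filter on low counts when a monosome group has a single library. These counts therefore cover 1342 to 1490 tested members, in place of 697, and 42927 to 45956 tested ORFs, in place of 26467. The higher count of lower members is thus not a higher share of them.

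The change of each member was set beside that of its host's coding footprints. Of the tested members, 600 had a host gene whose summed coding footprints were also tested. The member's log2 change between monosomes and polysomes had the sign of its host's in 497 of the 600, with a Spearman correlation of 0.72 across members. Member and host come from the same libraries and the same mRNA, and members of 1 gene share a host. Where they overlap, the caller divides footprints on the same bases between them. Host footprints given to the wrong frame would move with the host, and their part in this likeness was not tested. The median was below 0 for tested members (-0.76) and for all tested genes (-0.80), so equal signs are frequent even for unrelated pairs. Of 153 members called lower with a tested host, the host was called lower for 143, not called for 10 and called higher for 0. Of 67 called higher, the host was called higher for 39, not called for 26 and lower for 2. Over all 4765 tested genes 42.9% were called lower and 9.76% higher.

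**Figure D4:**
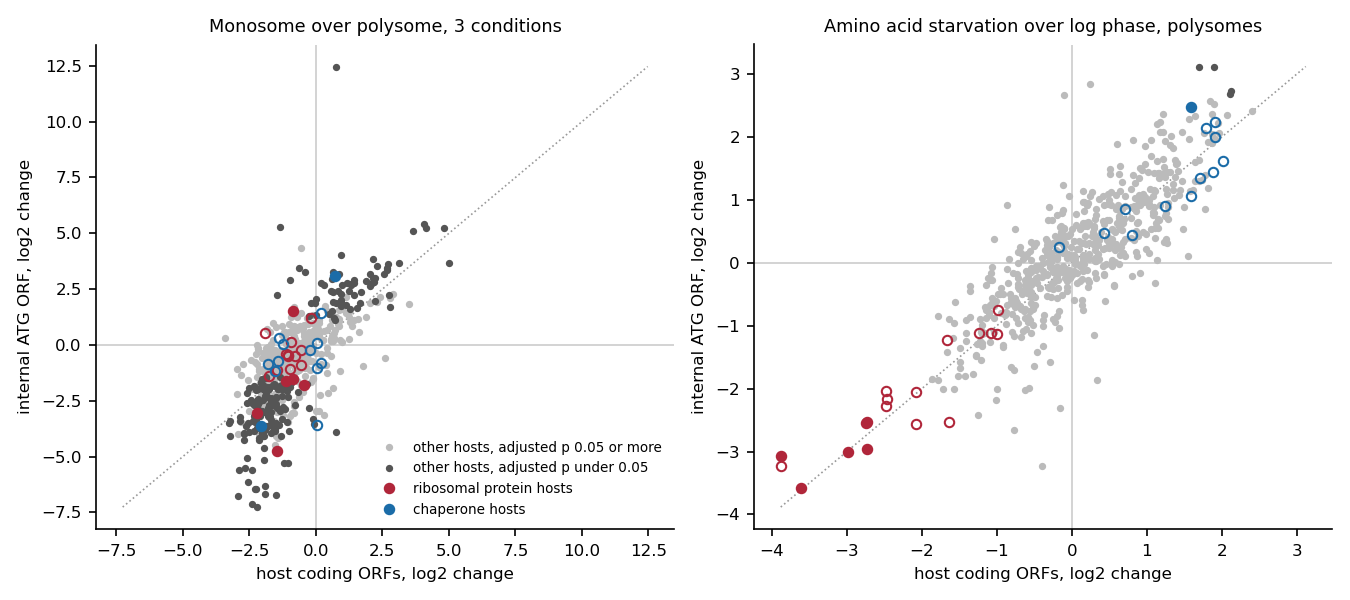
Log2 change of each of 600 members against that of its host's summed coding footprints, for monosomes over polysomes at left and, with the replicate term, for amino acid starvation over log phase in polysomes at right. Red marks ribosomal protein hosts, blue chaperone hosts and grey the others, filled or darker points are members with an adjusted p under 0.05, and the dotted line marks equal change. Both have the same sign for 497 of 600 members at left and 489 at right.

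The member over host ratio was tested directly for 561 members within a fit of 14731 ORFs of all non-coding types. It was higher in monosomes for 24 members and lower for 2, beside 7.45 and 1.28% of all ORFs. With the replicate term 48 were higher and 11 lower, beside 13.8 and 3.68%. The median log2 change of the ratio was 0.24 over members and 0.36 over all. With 1 library left out it was 0.058 to 0.39 over members, lowest without serum-starved monosome library A, and 0.25 to 0.53 over all. Leaving out any 1 monosome library left 6 to 15 members higher, with 6 without amino acid starvation B and 7 without log-phase B.

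Of 12 members with this test in chaperone genes 1 was higher, and of 19 in cytosolic ribosomal protein genes 1. The HSPA8 member rose by 2.41 ± 0.41 (adjusted p = 0.0044), while the coding footprints of HSPA8 changed by 0.72. The MRPS7 member (a mitochondrial ribosomal protein) starts 14 nt into its host and rose by 2.40 ± 0.54 (adjusted p = 0.018). It had 93.5 and 33.3 fpm in log-phase monosomes against 23.3 and 13.5 fpm in polysomes, and its monosome and polysome libraries overlap over the 3 conditions. The RPL19 member (a large-subunit ribosomal protein) rose by 2.38 ± 0.47 (adjusted p = 0.009) and holds only 8.04% of its host's density.

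The NT5DC2 member rose by 2.03 ± 0.38 (adjusted p = 0.0072) with a host change near 0. The TARDBP member (TDP-43, an RNA-binding protein) had 20.0 to 64.5 fpm in monosomes and 5.95 to 29.3 fpm in polysomes and rose against its host by 2.01 ± 0.39 (adjusted p = 0.0085), while the host had a log2 change of -1.02. The CALM2 member (calmodulin) rose against its host by 1.91 ± 0.49 (adjusted p = 0.032), the CCDC167 member by 1.75 ± 0.45 (adjusted p = 0.033) and the TPT1 member by 1.51 ± 0.42 (adjusted p = 0.044). ZNF281 and FAM200C, with their footprints in 2 libraries, were also called.

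The 2 members lower against their host were in ZBTB8OS (-3.44 ± 0.64, adjusted p = 0.0083), part of the tRNA ligase complex, and GLRX3 (-3.07 ± 0.76, adjusted p = 0.033), a glutaredoxin. The GLRX3 member had 0.193 to 2.97 fpm in monosomes and 6.68 to 21.4 fpm in polysomes, and the ZBTB8OS member 0.228 to 1.40 fpm and 1.68 to 9.76 fpm. Both rest on fewer than 4 monosome footprints in all, 3.7 and 3.6. The ratio of the PRDX1 member had a log2 change of -0.23 ± 0.42 and that of EIF5A of -0.35 ± 0.38, neither past the threshold.

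Members that start within 100 nt of the host start had a median ratio change of 0.38 over 117 tested, and those that start farther in 0.16 over 384. Of 121 tested members near the start 19 were higher and 29 lower in monosomes, and of 427 farther in 39 and 118, beside 16.7 and 22.8% of all tested ORFs. The difference between these was not tested. The 171-nt MAX member had 2.51 to 18.3 fpm in monosomes and 21.2 to 66.8 fpm in polysomes, and was lower by -2.57 ± 0.56 (adjusted p = 0.0031) with a host change of -2.23. The POLD2 member had 258 and 98.5 fpm in log-phase monosomes against 53.4 and 10.9 fpm in polysomes and was not called (1.22 ± 0.54, adjusted p = 0.081), while the fit with a replicate term did call it (adjusted p = 0.0014).

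Amino acid starvation gave member calls only in polysomes and, in edgeR with the usual filter, only with the replicate term. In polysomes the fit without it called 0 members and 0.0% of all ORFs in either direction. An unadjusted p under 0.05 was reached there by 42 of 697 members and 1554 of 26467 ORFs. DESeq2 called 0 members higher and 1 lower, beside 6 and 87 of all ORFs. With the replicate term 5 members were higher and 5 lower, beside 0.37 and 1.24% of all ORFs. In monosomes 0 members were called in edgeR with or without the term and 0 in DESeq2, with 0.0% of all ORFs called in edgeR. In edgeR without the term, 15 of 697 members and 690 of 26467 ORFs had an unadjusted p under 0.05.

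Values of single members that follow are from the fit with the term. All 5 members that fell in polysomes lay in cytosolic ribosomal protein genes, whose mRNAs carry a terminal oligopyrimidine tract through which the kinase mTOR controls their translation. The RPL28 member (48 nt) starts 5 nt into its host and had 40.5 and 5.75 fpm in log-phase polysomes A and B against 1.60 and 1.48 fpm in starved ones, a log2 change of -3.57 ± 0.77 (adjusted p = 0.023). The 45-nt RPL12 member went from 46.3 and 19.0 to 1.29 and 4.17 fpm (-3.07 ± 0.72, adjusted p = 0.029). The RPL27A member went from 428 and 88.0 to 24.2 and 27.3 fpm (-3.00 ± 0.71, adjusted p = 0.029).

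The RPS16 member went from 176 and 45.9 to 21.2 and 11.0 fpm (-2.55 ± 0.60, adjusted p = 0.029). In each of these 4 both starved libraries were below both log-phase libraries. Their hosts had log2 changes of -3.61 for RPL28, -3.88 for RPL12, -2.98 for RPL27A and -2.75 for RPS16. Without the replicate term the adjusted p of all 4 was 0.75.

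The ribosomal protein members as a group were all on this side. There are 33 members in 21 such genes, of which 18 were tested, and all 18 had a log2 change below 0, from -3.57 to -0.75 with a median of -2.41, where the median over all tested ORFs was 0.0041. Scaling by size factors (RLE) or by library size, tried without the term, moved the median of all ORFs from -0.0080 to 0.16 and 0.13. The median of their hosts over the same members was -2.48. Without the term 13 of the 18 had an unadjusted p under 0.05, beside 1554 of 26467 ORFs. Of the 14 host genes, 10 were called lower with the term and 0 without it, where 2.79 and 0.0% of all 4765 tested genes were called lower.

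The 5 members that rose were in genes of translation, splicing, replication, protein folding and heme A synthesis. The EIF3B member (168 nt, a core subunit of initiation factor 3) had 3.41 and 7.84 fpm in log-phase polysomes and 44.5 and 45.1 fpm in starved ones, a log2 change of 3.12 ± 0.61 (adjusted p = 0.013). The HNRNPM member (99 nt, a splicing regulator) went from 3.45 and 7.22 to 19.5 and 51.7 fpm (2.69 ± 0.64, adjusted p = 0.029). The MCM4 member (39 nt, a subunit of the replicative helicase) went from 2.12 and 6.48 to 8.88 and 59.4 fpm (2.73 ± 0.65, adjusted p = 0.031).

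The CCT5 member (75 nt, a chaperonin subunit) went from 6.84 and 15.7 to 54.5 and 65.2 fpm (2.47 ± 0.65, adjusted p = 0.043), and the COX15 member (48 nt, a heme A synthesis enzyme) from 0.62 and 1.36 to 10.3 and 7.93 fpm (3.12 ± 0.79, adjusted p = 0.04). Both starved libraries were above both log-phase libraries in each of the 5. Their hosts had log2 changes of 1.70 for EIF3B, 2.11 for HNRNPM, 2.13 for MCM4, 1.60 for CCT5 and 1.89 for COX15. The member over host ratio was called for 0 of 561 members and 0.0% of all ORFs in either starvation and fraction without the term, and for 0 members with it. In amino acid starvation 1 member in polysomes and 9 in monosomes had an unadjusted p under 0.05 for the ratio without the term, beside 94 and 354 of 14731 ORFs.

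These calls rest on single libraries. Leaving out log-phase polysome library A, with the replicate term kept, left 0 members called, and the lowest adjusted p among the 10 was 0.093, for RPL12. Leaving out starved polysome library A left 1 member called, which was none of the 10 (lowest adjusted p 0.064, for MCM4). Without log-phase library B there were 11 members called, among them EIF3B, RPL12, RPL27A, RPL28 and RPS16. Without starved library B there were 5, among them EIF3B, RPL12 and RPL27A. The sign of the change was the same in every one of these fits that tested the member. A lone library is assumed there to vary like those of the other groups.

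Serum starvation called 0 members in polysomes and 0 in monosomes in edgeR, with and without the term, and 0 in DESeq2. In edgeR 0.0% of all ORFs were called without the term, and 0.0% in polysomes and 0.034% in monosomes with it. An unadjusted p under 0.05 was reached by 27 of 697 members in monosomes and 0 in polysomes without the term, beside 1044 and 130 of 26467 ORFs. In monosomes the median member had a log2 change of 0.67 in serum starvation, where the median over all ORFs was 0.08. The member median was 0.0 without serum-starved monosome library B and 0.21 without serum-starved A, where that of all ORFs was -0.47 and 0.0. It was 0.35 without log-phase monosome library A, 0.87 without log-phase B, 0.40 without amino acid starvation A and 0.63 without amino acid starvation B. The medians of all ORFs in these fits were 0.0, 0.32, 0.0 and 0.08. Set against its host the median member changed by 1.00 and the median of all ORFs tested so by 0.81. Without serum-starved monosome library A these were 0.44 and 0.47, and without library B 1.54 and 1.00. With all libraries 53 of 561 members and 1173 of 14731 ORFs had an unadjusted p under 0.05 without passing the adjustment.

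Over all 600 members with a tested host, the change in amino acid starvation polysomes had the sign of the host's in 489, with a Spearman correlation of 0.85. Both come from the same libraries, and host footprints given to a member's frame were not told apart here either. Chaperone genes held 58 members, of which 13 were tested; none of the 13 was below 0, the median was 1.35 (hosts 1.60) and 1 was called. The 4 tested members in tubulin and actin genes had a median of 1.36 and the 6 in glycolysis genes 0.86, with none called. The 11 histone members had a median of -1.12 (hosts -1.27), 10 of them below 0 and none called. The 21 in initiation and elongation factor genes had a median of 0.12. Members in these groups are not independent. The H2AC13 and H2AC14 members had nearly the same values (totals 1845.6 and 1845.9), as had the 39-nt EIF2S3 and EIF2S3B members (113.8 and 112.5). The same holds for the 99-nt TUBA1B and TUBA1C members, and several members share a host.

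**Figure D5:**
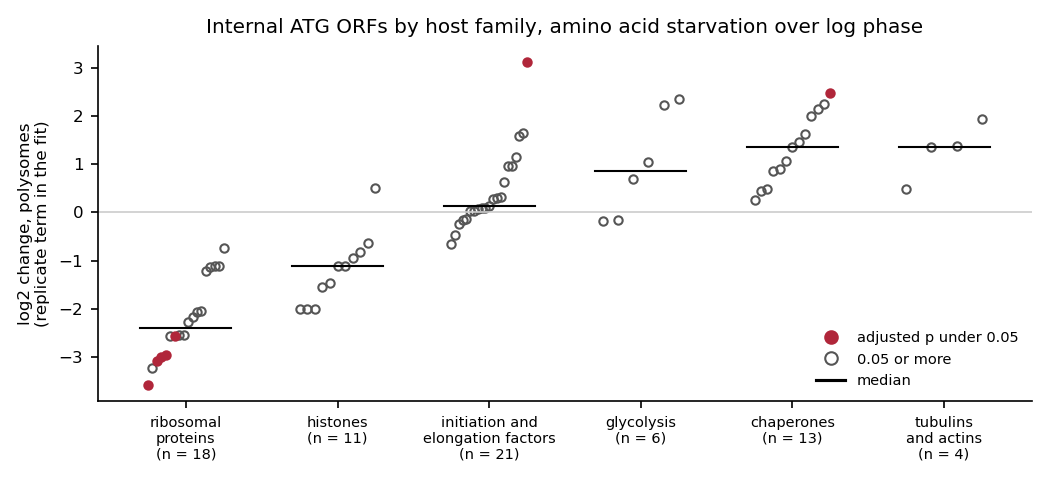
Log2 change in polysomes in amino acid starvation against log phase, from the fit with a replicate term, of every tested member in 6 groups of host genes, 1 point per member with the median as a bar. All 18 ribosomal protein members lie below 0, from -3.57 to -0.75, and none of the 13 chaperone members does.

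The genes whose products set the fidelity of start codon choice were looked at through their own coding footprints. Of 20 scanning and start recognition factors 17 were tested, and between monosomes and polysomes 2 were higher and 9 lower, where 9.76 and 42.9% of 4765 genes were called. Their median log2 change was -0.97 against -0.80 over all genes. In polysomes none was called in amino acid starvation under either fit. Of all genes 0.0% were called without the replicate term, and 4.64% higher and 2.79% lower with it. These genes also hold 25 members, of which 12 were tested.

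Of 8 genes of the integrated stress response, through which amino acid shortage lowers initiation, 1 was tested. ATF4, its transcription factor, had a log2 change of 1.40 between monosomes and polysomes (adjusted p = 0.0068) and of 0.12 in amino acid starvation polysomes. The list holds 4 members, in ATF4 (12 and 30 nt, totals 10.4 and 32.1), ASNS (4.0) and PPP1R15B (6.5), and none had enough footprints to be tested. Members in genes with a known alternative product were few. POLG, whose mRNA holds the alternative frame of POLGARF, had a 90-nt member with a total of 28.9, with 17.3 fpm in serum-starved monosome library B, and GNAS a 57-nt member with 205 footprints.

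The 5 longest members showed no call between fractions. They were in SNRNP70 (609 nt, a U1 snRNP protein), DNAJC14 (543 nt), FZR1 (417 nt, an activator of the anaphase-promoting complex), TSR1 (348 nt) and NR2F2 (327 nt). The SNRNP70 member had 2.97 to 36.6 fpm in monosomes and 3.70 to 33.3 fpm in polysomes, with a log2 change of -0.15 ± 0.61. The DNAJC14 member had 2.77 to 41.4 and 8.69 to 19.0 fpm with 0.29 ± 0.48. The caller's p of the 5 ran from 0.179 to 0.972.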

How the data were processed

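Ribosome footprints of 12 HEK293 libraries, 2 for each of 6 groups, were analysed from a deposited table of 149028 ORFs called by PRICE, as the deposited table is named. The submitters' processing notes list Bowtie 1.0 and hg38. The table's values are expected counts per ORF and library, unscaled, as deposited by the authors, and the p-value per ORF is from the authors' caller. Trimming, multi-mapping and caller settings are not given in the sources used here.

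Rows sharing a codon in frame were counted once, coding types first and then the higher total. Kept expected counts were rounded to whole numbers and fitted with edgeR 4.0.16 in R 4.3.3 (quasi-likelihood test, TMM scaling, filterByExpr with a minimum count of 10 and total of 15, 6 group means), with Benjamini-Hochberg adjustment over the 26467 ORFs tested and a threshold of 0.05. The common biological coefficient of variation was 0.632. The ± of a log2 change is an approximate SE, the size of the change divided by the square root of the test's F statistic. The ratio test fitted the member and its host's summed coding ORFs as 2 values per library, with library terms. Host sums used the effective library sizes of the ORF fit, a choice made after seeing the data. Models were run on simulated data with a smaller spread than these libraries and no letter effect, which cannot show how they perform here. Symbols came from RefSeq by position. Deviations of library B from library A correlated between all 15 pairs of groups (r of 0.212 to 0.761 across ORFs), so the letters were taken to pair the libraries, and the replicate term is the letter.

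Named members were up to 10 per contrast and direction past the threshold by size of change with at least 10 footprints per library on average in the higher group, the 12 highest totals, those with a caller p under 1e-04, the 5 longest and those in listed genes. Members and lists were chosen with earlier results of these data known. Alternatives were the replicate block, other filters, scalings and row rules, DESeq2 1.42.0, limma 3.58.1, ORFs over 5% of a library or chromosome MT left out, and each library left out in turn. Some items are not reported here.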

Additional observations from a re-analysis of the deposited data

How the results depend on the processing

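Of 180 results for single named members, 2995 of 3207 values under the alternatives kept their direction and their side of the threshold, 76 gained and 136 lost the call, and 0 turned sign. The replicate block gave 120 members higher and 244 lower in monosomes over 3 conditions, where the fit without it gave 89 and 166. The higher count was 31 with at least 50 counts in 2 libraries, 59 with library size scaling and 49 to 79 with 1 library left out, and the lower count was 512 with no filter, 52 with 50 counts in 2 libraries and 124 to 271 with 1 library left out. Both strictness settings change how many ORFs are tested. Against the host, the 24 higher and 2 lower members became 48 and 11 with the replicate block, 61 and 9 with limma on log2 ratios, and 42 and 10 with all rows as deposited. The higher count was 8 with 50 counts in 2 libraries and 6 to 22 with 1 library left out, and the lower count was 6 with no filter and 0 to 3 with 1 library left out. Within single conditions the 29 calls of log phase, 23 of serum-starved cells and 11 of amino-acid-starved cells became 156, 162 and 96 with the replicate block, 56, 67 and 24 with no filter, 13, 13 and 4 with 50 counts in 2 libraries, 7, 6 and 1 with library size scaling and 62, 45 and 34 with DESeq2. With all rows they were 44 and 43 in the first and second of these conditions, and with 1 library left out 2 to 46, 1 to 39 and 0 to 18. The 0 members changed by amino acid starvation in polysomes were 10 with the replicate block, 1 with no filter and 1 with DESeq2, and the 10 were 0, 11, 1 and 5 in turn without log-phase polysome library A or B or starved polysome library A or B and with the block kept, an alternative chosen after seeing the data. The 0 changed by serum starvation in monosomes were 4 with no filter. The other starvation counts, those against the host included, were 0 under every alternative run and 0 with any library left out. The mean share of footprints was 0.935% in monosomes and 1.18% in polysomes. It was 0.0181 and 0.0291% over members with a caller p under 0.01. With all rows as deposited it was 0.72% in polysomes, and the monosome mean was then above the polysome mean. The single libraries ran there from 0.488 to 1.39% in monosomes and from 0.582 to 0.923% in polysomes. The cause of these differences was not tested. Depth limits the class most in monosomes, where libraries held 354506 to 1204002 footprints and 4508 kept members were not tested.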
